A study of Rattus norvegicus with 9 samples.

Results

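The baseline described here is that of the normal control livers, 3 of the 9 rat liver libraries sequenced in a study of liver fibrosis. The members were the 3 libraries labelled as normal control liver (rat wt), called Normal livers 1 to 3, and they were described across the 16938 genes of the deposited table with no comparison to treated rats. The rats were male SD (Sprague–Dawley) rats of the normal control group, which received normal saline at the dose of the CCl4 given to the other sequenced groups. Every rat was fasted for 12 h and anesthetized with sodium pentobarbital before its liver was taken. The age of the rats and the hour of collection are not given in the sources used here. Each library holds polyA-selected RNA of whole liver tissue, so that the values average over all cells of the piece. The libraries are numbered as replicates, and no source used here says that they came from separate rats, so that an SD measures the spread between these 3 libraries, which may be technical.

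The liver is built mainly of hepatocytes, which make most plasma proteins, store and release glucose, oxidize and export lipids, turn ammonia into urea, make bile acids and modify drugs. Between the hepatocyte plates lie sinusoidal endothelial cells, resident macrophages (Kupffer cells) and vitamin A-storing stellate cells, and cholangiocytes line the bile ducts. Hepatocytes near the portal vein and near the central vein carry out different tasks, and a whole-tissue library mixes both. Many liver genes also follow the daily clock and the feeding state, and in rats many differ between the sexes.

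The counted reads summed to 14257489 in Normal liver 1, 18090405 in Normal liver 2 and 14603213 in Normal liver 3. Levels are given as FPKM, the reads per kilobase of exon per 1000000 counted reads that the authors deposited, and spread as CPM, the reads per 1000000 after TMM scaling between the libraries. At these depths a gene with no read may still have had up to 0.166 to 0.210 CPM, the level of 3 reads. Intervals and limits of this kind cover counting error only. Normal liver 3 stood apart from the other normal livers. Over the 6671 genes with a mean of at least 10 CPM, the root mean square difference in log2 CPM was 0.383 between livers 1 and 2, 0.593 between livers 1 and 3, and 0.621 between livers 2 and 3. Each pair differed beyond counting error in 4567 or more of 11400 genes (chi-square test of the counts, adjusted p under 0.05). The test covers counting error alone, so that it cannot tell separate rats from separate preparations of the same liver. Because Normal liver 3 stood apart, counts of genes over 2-fold apart are also given between Normal livers 1 and 2.

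Reads were found for 14664, 14782 and 14360 genes in Normal livers 1, 2 and 3, and 1207 genes had no read in any of them. A level of at least 1 FPKM in all 3 livers was reached by 9243 of 16938 genes, 54.6%. At least 10 FPKM in each liver was reached by 3431 genes, at least 100 by 596 and at least 1000 by 59. Among the genes at 1 FPKM or more, the median level was 7.69, 7.70 and 7.76 FPKM in the 3 livers. A small group of genes took a large share of the reads. The 50 most read genes held 44.8, 44.3 and 45.4% of the counted reads (44.8% ± 0.532, SD, n = 3), and 76, 78 and 72 genes were enough to reach 50% in Normal livers 1, 2 and 3. The livers differed little in this measure although single genes among the 50 differed more.

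**Figure D1:**
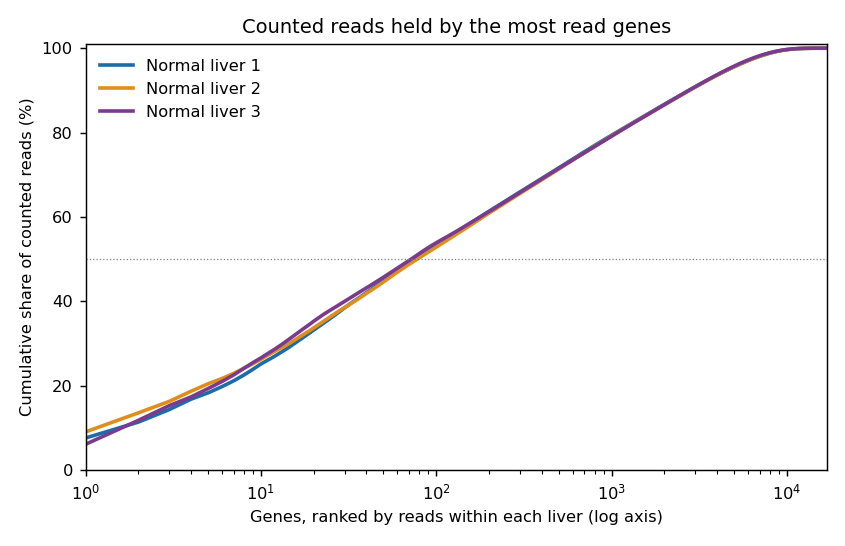
Cumulative share of the counted reads (%) against the rank of genes by reads on a log axis, 1 line for each of the 3 normal livers. The lines lie nearly on each other and cross 50% (dotted) after 76, 78 and 72 genes.

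Alb, the gene of serum albumin, was the most read gene in each liver. It had 36753, 43776 and 29546 FPKM in Normal livers 1, 2 and 3, and took 7.604, 9.06 and 6.11% of the counted reads. The level was highest in Normal liver 2 and lowest in Normal liver 3, 1.47-fold apart in CPM. Behind Alb in mean FPKM came Mt-co1, the feature AABR07069878.1, Mt-atp6 and then Apoe. Of the 30 genes of highest mean FPKM, 12 were on the list of plasma carriers and protease inhibitors, 5 on the list of apolipoproteins and 7 were mitochondrially encoded. Apoh is on both protein lists, so that these make 23 genes. Apoe, the lipoprotein ligand of hepatic receptors, had 19044, 17481 and 22394 FPKM. Ttr, which carries thyroxine and retinol-binding protein, had 19274, 14696 and 15496 FPKM, and Hp, the haemoglobin scavenger haptoglobin, had 11642, 14959.7 and 17610.1 FPKM. Apoe and Hp were highest in Normal liver 3, while Ttr was highest in Normal liver 1. Serpina1, the inhibitor of neutrophil elastase, had 7689 ± 658 FPKM (SD, n = 3), Rbp4, the retinol carrier, 6699 ± 203 FPKM, and Gc, the vitamin D-binding protein, 5499 ± 312 FPKM. For each of these, the SD was small beside the mean. Tf, the iron carrier transferrin, had 7593, 7392 and 4787 FPKM and was lowest in Normal liver 3, as was Ahsg, the calcium-binding fetuin-A, at 4742, 4052 and 2599 FPKM. Fabp1, the cytosolic fatty acid binding protein of hepatocytes, was the most abundant member of the fatty acid oxidation list at 6008, 4135 and 5653 FPKM.

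A gene was called apart when the highest and the lowest liver differed by over 2-fold in CPM, which held for 22.0% of the 11400 genes with a mean of at least 1 CPM. Between Normal livers 1 and 2 it held for 6.12%. Within the top 30, 2 genes were apart, Apoc1 and Mup5. Rank by FPKM and rank by reads were not the same. The feature AABR07069878.1 stood in rank 3 by FPKM, at 29756, 18833 and 22006 FPKM, and in rank 63 by reads. Its counted length, recovered from the ratio of reads to FPKM, is 87 bases, and the level of so short a feature is uncertain. Tf, with a counted length of 3271 bases, stood in rank 4 by reads and in rank 18 by FPKM. Of the top 30 by FPKM, 24 were also among the top 30 by reads. The top 30 also held Rup2, which encodes a urinary protein, at 9096 ± 1140.0 FPKM, Rida, an intracellular deaminase, at 3202 ± 916 FPKM, and the loci LOC680406 and LOC100360095, at 4855 ± 1116 and 3518 ± 1102 FPKM (SD, n = 3).

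**Figure D2:**
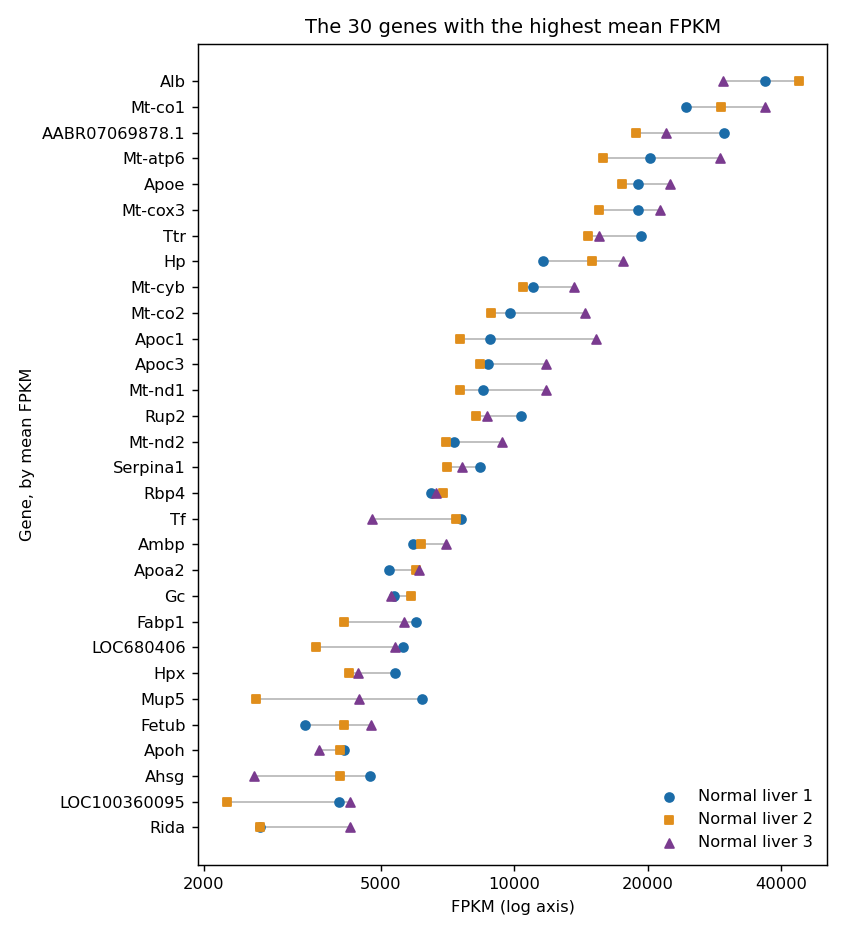
FPKM on a log axis of the 30 genes with the highest mean FPKM, with a point for each normal liver and a line from the lowest to the highest. Alb, Mt-co1 and AABR07069878.1 lead, and Apoc1 and Mup5 are the genes over 2-fold apart.

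The sequences in front of some of these genes are shown because they carry short motifs that were more frequent in front of abundant genes. The motifs searched on both strands were TATAAA, the TATA box, and GTTAAT, a short motif known from liver promoters, and they do not overlap each other in the windows shown. The 250 bases before each RefSeq start of assembly GRCr8 were used. Windows were matched by gene symbol, which gave windows for 7068 of the 9243 genes at 1 FPKM or more in all 3 livers. TATAAA was found in 23 of 107 windows of the 100 most abundant genes with a RefSeq window (21.5%), in 6.51% of the 7700 windows of genes at 1 FPKM or more in all 3 livers, and in 12.9% of all 33469 windows. GTTAAT was found in 19.6% of the windows of the 100 most abundant genes, in 4.14% of those of expressed genes and in 6.45% of all windows. The CCAAT motif differed less, with 40.2%, 36.1% and 34.02%. The median number of CG pairs was 4 in the windows of the 100 most abundant genes, 16 in those of expressed genes and 5 in all windows. The windows of several starts of a gene overlap, and matches were not tested. In the following windows, written 5′ to 3′ toward the gene, capitals mark TATAAA and GTTAAT on either strand.
Alb (GRCr8 chr14:17906980-17907229, minus strand): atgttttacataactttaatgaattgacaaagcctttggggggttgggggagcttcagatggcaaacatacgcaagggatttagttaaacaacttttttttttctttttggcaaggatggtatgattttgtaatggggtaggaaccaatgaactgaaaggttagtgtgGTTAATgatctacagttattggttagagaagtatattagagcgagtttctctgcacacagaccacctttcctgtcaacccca
Fabp1 (GRCr8 chr4:104749090-104749339, plus strand): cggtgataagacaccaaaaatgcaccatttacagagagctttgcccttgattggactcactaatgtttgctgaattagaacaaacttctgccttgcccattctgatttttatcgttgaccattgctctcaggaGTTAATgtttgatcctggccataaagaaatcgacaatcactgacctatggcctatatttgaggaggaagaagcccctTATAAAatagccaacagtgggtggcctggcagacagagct
Tf (GRCr8 chr8:112695377-112695626, minus strand): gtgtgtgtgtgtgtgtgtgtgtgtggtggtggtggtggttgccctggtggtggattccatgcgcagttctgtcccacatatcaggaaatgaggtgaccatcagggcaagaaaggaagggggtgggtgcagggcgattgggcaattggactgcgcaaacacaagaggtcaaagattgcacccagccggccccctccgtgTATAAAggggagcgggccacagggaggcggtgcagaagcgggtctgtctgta
Mup5 (GRCr8 chr5:79999696-79999945, minus strand): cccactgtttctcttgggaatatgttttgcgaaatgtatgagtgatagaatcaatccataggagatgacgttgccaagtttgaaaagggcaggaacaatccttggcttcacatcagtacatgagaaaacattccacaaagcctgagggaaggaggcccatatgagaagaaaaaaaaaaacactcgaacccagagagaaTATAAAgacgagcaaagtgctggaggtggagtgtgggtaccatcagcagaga
Cyp2c11 (GRCr8 chr1:246174966-246175215, plus strand): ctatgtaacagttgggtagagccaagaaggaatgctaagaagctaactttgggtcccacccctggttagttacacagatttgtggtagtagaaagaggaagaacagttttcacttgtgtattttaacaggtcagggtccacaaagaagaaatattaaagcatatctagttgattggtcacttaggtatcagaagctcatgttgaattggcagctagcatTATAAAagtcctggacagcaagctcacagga
Rbp4 (GRCr8 chr1:245313552-245313801, minus strand): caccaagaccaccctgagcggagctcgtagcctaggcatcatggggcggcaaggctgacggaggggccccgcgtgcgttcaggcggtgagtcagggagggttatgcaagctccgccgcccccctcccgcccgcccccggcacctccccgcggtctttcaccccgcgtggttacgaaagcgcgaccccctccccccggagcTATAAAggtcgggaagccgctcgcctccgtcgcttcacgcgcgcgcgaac
Rplp0 (GRCr8 chr12:46718391-46718640, minus strand): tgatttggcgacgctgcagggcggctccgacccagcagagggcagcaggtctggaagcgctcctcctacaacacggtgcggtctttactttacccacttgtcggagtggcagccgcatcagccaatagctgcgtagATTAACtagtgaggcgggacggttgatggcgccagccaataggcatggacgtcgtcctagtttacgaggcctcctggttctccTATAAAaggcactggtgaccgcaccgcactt
The Alb window holds GTTAAT, which starts 82 bases before the annotated start, and no TATAAA. The Fabp1 window holds both. The Rbp4 window, with 31 CG pairs, and the Tf, Mup5 and Cyp2c11 windows hold TATAAA alone. Rplp0, the gene of a ribosomal protein that is used in every cell, was shown as a contrast, and its window also holds both motifs. Among the windows of cytosolic ribosomal protein genes, 10.2% held TATAAA and 6.78% held GTTAAT.

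The mitochondrially encoded genes, subunits of the respiratory chain and of ATP synthase, held 10.6, 10.5 and 14.7% of the counted reads. The share was highest in Normal liver 3, where each of the 13 genes had its highest CPM of the 3 livers. Of the 11400 genes with a mean of at least 1 CPM, 4565 had their highest level there. Mt-co1, the catalytic subunit of cytochrome c oxidase, had 24434, 29186 and 36768 FPKM, and Mt-cyb of complex III had 11007, 10495 and 13640 FPKM. The subunits of complex I spanned a wide range. Mt-nd1 had 8489, 7553 and 11778 FPKM, Mt-nd5 1515, 1355 and 2166 FPKM and Mt-nd4 187, 206 and 256 FPKM. Mt-atp6 had 20199, 15875 and 29094 FPKM, while Mt-atp8, which overlaps it on the mitochondrial genome, had 27.5, 6.77 and 33.2 FPKM. Overlapping genes and nuclear copies can lose reads in the counting, so that the order of these genes is uncertain, above all for Mt-atp8, Mt-nd4l and Mt-nd4. Leaving the mitochondrially encoded genes out of the library total changed the shares of other groups, which are therefore given both ways where it matters.

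Secreted plasma proteins held more of the reads than the mitochondrially encoded genes. Together the lists of plasma carriers and protease inhibitors, coagulation, complement and apolipoproteins, 124 genes, held 33.8, 34.2 and 30.6% of the counted reads. Without mitochondrially encoded reads in the total, the shares were 37.8, 38.2 and 35.9%. Normal liver 3 was lowest in both. Of the 50 carriers and inhibitors, 46 reached 1 FPKM in all 3 livers. The coagulation list had 24 of 27 genes at that level, which compares with 54.6% of all genes. The chains of fibrinogen, the clot protein, had 1653, 1346 and 891 FPKM (Fga), 1743, 1505 and 1406 FPKM (Fgb) and 2209, 1737 and 1086 FPKM (Fgg). All of these chains were lowest in Normal liver 3. The prothrombin gene F2 had 1134, 1228 and 824 FPKM, and Serpinc1, antithrombin, had 824, 823 and 806 FPKM, with a very small spread. F5, a cofactor of prothrombin activation, was lower at 15.7, 19.3 and 8.72 FPKM.

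The complement list had 27 of 29 genes at 1 FPKM or more in all 3 livers, against 54.6% of all genes. C3, the central component, had 1702, 1662 and 1772 FPKM, and Cfb of the alternative pathway 707, 786 and 737 FPKM. Both had a small spread. Masp1, a protease of the lectin pathway, was far lower in Normal liver 3, at 22.3, 18.6 and 5.60 FPKM, and Cfd was highest there, at 20.6, 27.7 and 56.4 FPKM. Among acute phase proteins, Hamp, which encodes the iron hormone hepcidin, had 2525, 2426 and 934 FPKM, Crp 974, 808 and 319.7 FPKM and Orm1 655, 746 and 1647 FPKM. Hamp and Crp were lowest in Normal liver 3 and Orm1 was highest there, so that the acute phase genes did not move together. A2m, the alpha-2-macroglobulin that rats induce strongly in inflammation, had no read in any liver.

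Several of the abundant genes lie beside each other on the rat assembly GRCr8, where neighbours differed widely in level. These groups were chosen after the values were seen. Alb, Afp and Afm, of the albumin family, lie in a row. Afp, the fetal alpha-fetoprotein, had 8.07, 6.14 and 6.99 FPKM beside a mean of 36691 FPKM for Alb, and Afm, the vitamin E-binding afamin, had 650.2, 518 and 533 FPKM. In the apolipoprotein E group, Apoc1 had 8816, 7539 and 15255, Apoc4 888, 701 and 1870.2 and Apoc2 2662, 1907 and 2888 FPKM. Apoe and these 3 neighbours were highest in Normal liver 3. In the apolipoprotein A1 group, Apoc3, an inhibitor of lipoprotein lipase, had 8739, 8380.4 and 11801 FPKM and was highest in Normal liver 3. Its neighbours Apoa1, the main protein of high density lipoprotein, with 1699.7, 894 and 599 FPKM, and Apoa4, with 263, 159.5 and 76.4 FPKM, were lowest there. Neighbouring genes of these groups thus differed in level. In the albumin and apolipoprotein A1 groups, they also differed in the liver in which they were highest. Fga, Fgb and Fgg, which are also neighbours, were closer in mean level, at 1297, 1551 and 1677 FPKM. Each of these chains was highest in Normal liver 1.

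Of the urea cycle list, 8 of 8 genes reached 1 FPKM in all 3 livers, against 54.6% of all genes. In CPM, 1 of 8 was over 2-fold apart between livers, against 22.0% of all tested genes, and 0 of 8 between Normal livers 1 and 2. All 8 had a mean of at least 10 CPM, where 12.8% of all genes were over 2-fold apart. Ass1, which joins citrulline and aspartate, had 964, 1285 and 1017 FPKM, Arg1, which releases urea, 485, 739 and 833 FPKM, and Cps1, which starts the cycle, 254, 345 and 209 FPKM. The gene apart was Slc25a13, the mitochondrial aspartate-glutamate carrier, with 33.4, 44.01 and 8.77 FPKM. Of 45 tested genes of amino acid breakdown, 5 were over 2-fold apart, and 2 between Normal livers 1 and 2, against 22.0% and 6.12% of all tested genes. At a mean of at least 10 CPM it was 4 of 43, against 12.8% of all genes. The median range of that list, 0.60 on the log2 CPM scale, was near the 0.59 of all tested genes. Hpd of tyrosine breakdown had 1359.6, 1687 and 1876 FPKM, Bhmt, which remethylates homocysteine, 927, 915 and 1268 FPKM, and Tat, the tyrosine aminotransferase, 505, 789.7 and 782 FPKM. Tdo2, the tryptophan dioxygenase, was wider, with 249.6, 717 and 397 FPKM. It was highest in Normal liver 2, whereas Sds, the serine dehydratase, was highest in Normal liver 3 at 166, 202 and 358 FPKM.

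Several genes that serve the fasting liver were abundant. The rats had been fasted, but no fed liver was at hand, so that an effect of fasting was not tested. Pck1, which makes phosphoenolpyruvate for glucose synthesis, had 1523, 1734 and 1026 FPKM, Fbp1 649, 605 and 607 FPKM and G6pc, which releases free glucose, 354, 259 and 607 FPKM. Pck1 was lowest and G6pc highest in Normal liver 3, while Fbp1 hardly differed. Of 32 tested genes of fatty acid oxidation and ketogenesis, 6 (18.75%) were over 2-fold apart, against 22.0% of all tested genes. Between Normal livers 1 and 2 it was 1 of 32, against 6.12%. All 32 had a mean of at least 10 CPM, where 12.8% of all genes were over 2-fold apart. Acsl1, which activates long chain fatty acids, had 501, 421 and 338 FPKM. Cpt1a, the gate of fatty acids into mitochondria, had 111, 62.2 and 43.1 FPKM. Both were highest in Normal liver 1 and lowest in Normal liver 3. Pdk4, which blocks pyruvate use in fasting, ran a different way, with 42.4, 129 and 11.7 FPKM and a maximum in Normal liver 2.

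The genes of fatty acid and triglyceride synthesis were lower in level and uneven between the livers. Of 24 tested genes, 16 were over 2-fold apart, 66.7%, against 22.0% of all tested genes, and 8 of 24 were over 2-fold apart between Normal livers 1 and 2 alone, against 6.12% of all tested genes. The list did not move as a whole. Srebf1, the sterol-responsive factor that drives lipogenesis, had 7.56, 16.7 and 34.1 FPKM, and Fasn, the fatty acid synthase, 1.87, 3.67 and 7.58 FPKM. Both were highest in Normal liver 3. Elovl5, Fads1 and Fads2, which build polyunsaturated fatty acids, were lowest there, at 83.8, 47.1 and 10.05, 75.6, 36.6 and 19.4 and 103, 108 and 29.4 FPKM. Insig1, which retains the sterol sensor in the endoplasmic reticulum, was highest in Normal liver 2, at 69.2, 241 and 66.8 FPKM. Over the list, 13 of 24 genes had their lowest and 7 their highest level in Normal liver 3. Among all 11400 tested genes, the counts were 4513 and 4565. Of the cholesterol synthesis list, 6 of 24 genes (25%) were over 2-fold apart, against 22.0% of all tested genes, and 2 between Normal livers 1 and 2. At a mean of at least 10 CPM it was 4 of 20, against 12.8% of all genes. Hmgcs1 had 132, 103 and 99.2 FPKM, and Sqle, the squalene epoxidase, 3.19, 5.35 and 7.34 FPKM. Sqle was lowest in Normal liver 1 and highest in Normal liver 3.

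Bile acid genes held 0.942% ± 0.0223 of the counted reads (SD, n = 3). Cyp7a1, the rate-limiting enzyme of bile acid synthesis, had 20.8, 21.1 and 68.1 FPKM, and Nr0b2, the small heterodimer partner that represses it, had 54.9, 135 and 13.4 FPKM. Normal liver 3 had the highest level of Cyp7a1 and the lowest of Nr0b2, and Normal liver 2 the highest of Nr0b2. Cyp8b1, which makes cholic acid, had 865, 602 and 482 FPKM, and Baat, which couples bile acids to amino acids, 924, 549 and 1363 FPKM. Of the transporters, Slc10a1, which takes bile acids up from blood, had 293, 312 and 250.2 FPKM, and Abcb11, which exports them into bile, 99.2, 123 and 87.3 FPKM. The livers were 1.24-fold apart for Slc10a1 and 1.40-fold for Abcb11 in CPM.

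Cytochrome P450 genes, which oxidize drugs, steroids and fatty acids, held 2.01% ± 0.175 of the counted reads. Of 62 listed genes, 39 (62.9%) reached 1 FPKM in all 3 livers, beside 54.6% of all genes. Family 2, with 18 of 24 genes at that level, made up 55.6% of the summed P450 FPKM, family 4 22.1%, family 3 8.59% and family 1 4.05%. Cyp2e1, which oxidizes ethanol, had 1165, 1519 and 1782 FPKM, Cyp2d2 989.8, 1222 and 1089 FPKM and Cyp4a2, a fatty acid omega-hydroxylase, 877, 1758 and 1409 FPKM. Cyp2e1 was lowest in Normal liver 1 and highest in Normal liver 3. Cyp1a2 had 395, 488 and 331 FPKM. Cyp3a2 was the widest P450, with 422, 770.3 and 71.1 FPKM, 10.7-fold apart in CPM, and the low sum of family 3 in Normal liver 3 came with it, since Cyp3a18 had 295, 438 and 409 FPKM. Of 43 tested P450 genes, 11 were over 2-fold apart with all livers and 1 between Normal livers 1 and 2, beside 22.0% and 6.12% of all tested genes. Related genes of these families share sequence, and reads could be split between them by the counting.

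The conjugating enzymes were led by few members. Mgst1, a membrane glutathione transferase, had 2118, 2047 and 2014 FPKM and a very small spread, and Gstm1 had 903, 1006 and 797 FPKM. Of the glutathione S-transferases, 19 of 21 reached 1 FPKM in all 3 livers, against 54.6% of all genes. The glucuronosyltransferases were led by Ugt2b37, with 229.7, 302 and 541 FPKM, and Ugt2b35, with 242, 269.5 and 249 FPKM. Ugt2b37 was highest in Normal liver 3, while Ugt2b35 hardly differed. The sulfotransferase Sult1a1 had 359.5, 560.4 and 653 FPKM, and Sult1c3 64.1, 64.7 and 18.5 FPKM. Of the carboxylesterases, which hydrolyse esters and drugs, 4 of 9 were over 2-fold apart both with all livers and between Normal livers 1 and 2 alone, against 22.0% and 6.12% of all tested genes. Ces1f had 493, 398 and 352 FPKM and Ces1d 229.8, 323 and 162 FPKM. The type 2 members Ces2a, Ces2e, Ces2j and Ces2i were each highest in Normal liver 2, at 11.8, 40.5 and 3.23 FPKM for Ces2a and 2.35, 11.7 and 1.60 FPKM for Ces2j. Ces2e had 2, 812 and 0 reads, so that its CPM in Normal liver 2 was at least 217-fold higher than in Normal liver 3, where the limit of 3 reads was used in place of 0.

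The members of isozyme families were compared in level. In 23 of 28 families, the lowest level of the leading member lay above the highest level of every other member, and in 14 families the leading member made up over 90% of the family's summed FPKM. Arg1 had 685 FPKM on average and Arg2 0.148. Mat1a, the liver methionine adenosyltransferase, had 654 FPKM, against 11.996 for Mat2a. Pygl, the liver glycogen phosphorylase, exceeded the muscle form Pygm, with 59.5 against 0.422 FPKM. Slc2a2, the glucose transporter of hepatocytes, made up 81.2%, 80.7% and 79.99% of its family's FPKM in the 3 livers. Gjb1, the main hepatocyte connexin, had 479, 496 and 329.6 FPKM against 21.6, 9.40 and 6.68 for Gjb2. As follows from this separation of levels, the leading form of the 23 families was the same in each liver.

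In the remaining 5 families the levels of members overlapped between livers. The FOXA factors, which open liver chromatin, had similar levels, with 12.1, 20.6 and 8.16 FPKM for Foxa1, 10.3, 9.64 and 13.5 for Foxa2 and 15.9, 19.7 and 19.3 for Foxa3. The water channels Aqp8 and Aqp9 had 112, 129.8 and 100.5 and 118, 89.7 and 81.8 FPKM. Of the AMPK catalytic subunits, Prkaa2 had 2.64, 4.52 and 1.63 FPKM and Prkaa1 2.70, 2.83 and 2.90 FPKM. Of the insulin receptor substrates, Irs1 had 3.65, 5.33 and 2.66 and Irs2 4.24, 3.39 and 6.16 FPKM. The keratins Krt18 and Krt8 had 208, 138 and 269 and 119, 113 and 161 FPKM. Pklr, the liver pyruvate kinase, with 7.06, 6.79 and 12.1 FPKM, stayed above Pkm, with 5.58, 4.40 and 4.06 FPKM, although by little in Normal liver 1.

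**Figure D3:**
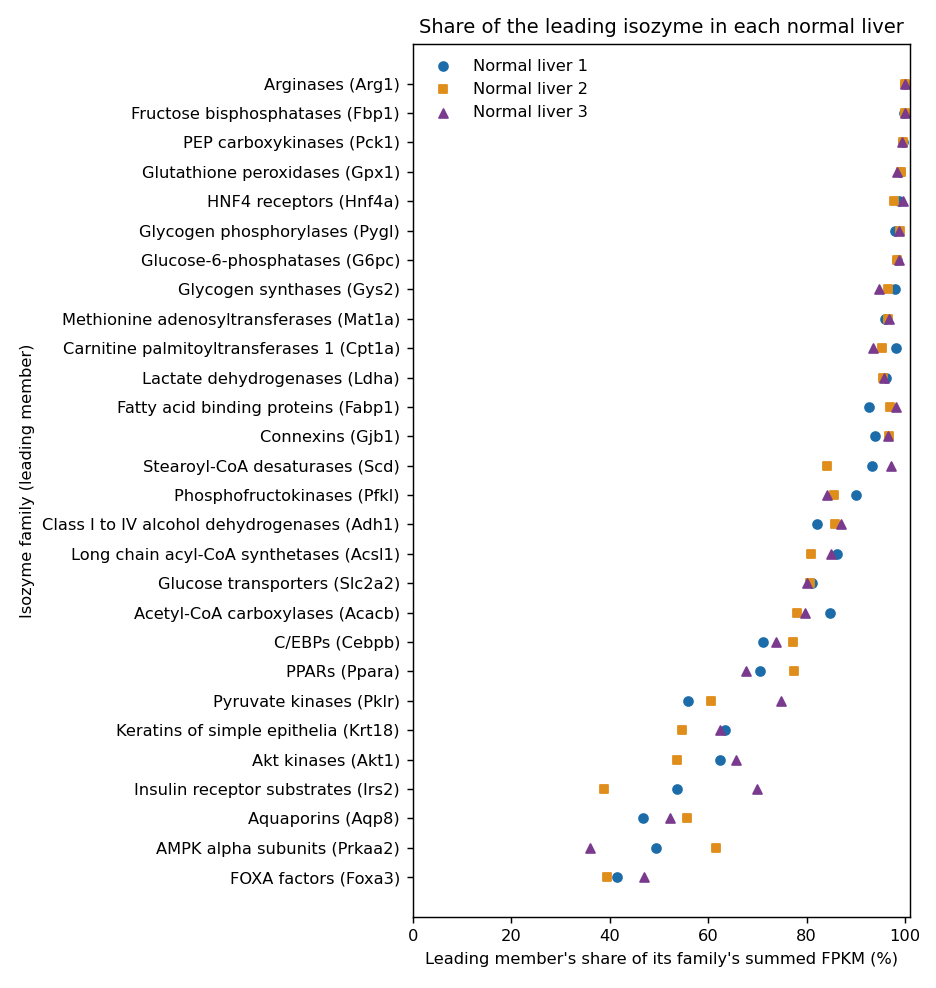
Share of the leading member in the summed FPKM of its family (%), for 28 families ordered by their mean, with a point for each normal liver. The arginase, fructose bisphosphatase and PEP carboxykinase families lie near 100%, and Prkaa2 of the AMPK catalytic subunits lies at 49.5%, 61.5% and 35.9%.

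Transcription factors held few of the reads. Of 48 hepatocyte factors, 42 (87.5%) reached 1 FPKM in all 3 livers, against 54.6% of all genes. The list held 0.481% ± 0.00659 of the counted reads. Atf5 had 769.6, 698 and 656 FPKM, Cebpb 396, 489 and 359 FPKM and Cebpa 123, 111 and 92.8 FPKM. Hnf4a, a nuclear receptor that controls hepatocyte identity, had 85.5, 86.3 and 89.3 FPKM, 1.07-fold apart in CPM. The xenobiotic receptors Nr1i2 (PXR) and Nr1i3 (CAR) had 119, 132 and 150.2 and 97.3, 106 and 91.3 FPKM, Nr1h3 (LXR alpha) had 96.9, 111 and 127 FPKM and Nr1h4 (FXR), the bile acid receptor, 24.97, 25.1 and 41.8 FPKM. Ppara, the fatty acid sensor, had 7.58, 13.2 and 5.18 FPKM and was highest in Normal liver 2. Xbp1, a factor of the unfolded protein response, was lowest in Normal liver 3, at 68.3, 65.8 and 31.2 FPKM. Of 36 tested nuclear receptors, 11 were over 2-fold apart and 5 between Normal livers 1 and 2, against 22.0% and 6.12% of all tested genes. Of 334 solute carriers in the table, 173 (51.8%) reached 1 FPKM in all 3 livers, near the 54.6% of all genes. Slc27a2, a fatty acid transporter and acyl-CoA synthetase, Slc38a3, a glutamine transporter, and Slco1b2, which takes up organic anions, had 598, 573 and 547, 258, 312 and 292 and 168, 176 and 107 FPKM.

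The rats were male per the paper's methods, and the sex-biased genes were examined for it. Of 19 genes that are male-biased in rat liver, 19 reached 1 FPKM in all 3 livers, as did 7 of 11 female-biased genes (63.6%) and 54.6% of all genes. Cyp2c11, a testosterone hydroxylase of male liver, had 552, 449 and 434 FPKM, and Cyp2c13 695, 562 and 462 FPKM. The alpha-2u globulins, urinary pheromone carriers, were led by Mup5 at 6194, 2626 and 4476 FPKM, and LOC259245 had 1100.4, 529 and 768 FPKM. Both were lowest in Normal liver 2, and as near-identical copies they may share reads. Of the female-biased list, Cyp2c12 had 5.57, 5.86 and 9.68 FPKM, and A1bg 0.261, 0.114 and 0 FPKM. Of 4 Y-linked genes, Eif2s3y and Kdm5d had 12.99, 12.9 and 13.2 and 2.31, 2.72 and 2.48 FPKM, while Ddx3y had 0.155, 0.0523 and 0.173 FPKM and Usp9y 0.00713, 0 and 0 FPKM. Not all female-biased genes were low, since Hao2 had 249.7, 175 and 218 FPKM and Cyp2a1 149, 177 and 199.5 FPKM.

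Both metabolic zones were represented. Of 19 pericentral genes, 16 reached 1 FPKM in each liver, and of 19 periportal genes 17 did, against 54.6% of all genes. Glul, the glutamine synthetase of the innermost pericentral cells, had 209.9, 135 and 139 FPKM, and Oat 176, 174 and 168 FPKM. Axin2 and Lgr5, which respond to Wnt signals from the central vein, had 3.20, 2.04 and 3.47 and 0.179, 0.177 and 0.416 FPKM. On the periportal side, Hal, the histidine ammonia-lyase, had 149, 150.3 and 143 FPKM, and Igf1, the main growth hormone target, 247, 139.7 and 143 FPKM. Of each list, 4 of 18 tested genes were over 2-fold apart, 22.2%, against 22.0% of all tested genes, and 1 of 18 between Normal livers 1 and 2. At a mean of at least 10 CPM it was 2 of 13 pericentral and 3 of 17 periportal genes, against 12.8% of all genes.

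The liver label was examined with cell type markers. The 10 hepatocyte markers were at 10 FPKM or more in each liver and held 11.2% ± 1.40 of the counted reads. Of all 16938 genes, 3431 reached 10 FPKM in each liver. In bulk tissue, fewer cells of a type and less RNA per cell cannot be told apart. Of 11 Kupffer cell and macrophage markers, 10 reached 1 FPKM in all 3 livers, as did 54.6% of all genes. Clec4f, a lectin of Kupffer cells, had 78.6, 72.7 and 61.6 FPKM, C1qa, which macrophages make, 126, 80.97 and 105 FPKM, and Cd68 21.99, 14.3 and 16.995 FPKM. All 9 markers of sinusoidal endothelium reached 1 FPKM, with 23.3, 31.3 and 16.6 FPKM for Clec4g and 3.12, 2.46 and 2.21 FPKM for Stab2. Of 11 stellate cell and fibroblast markers, 8 (72.7%) reached 1 FPKM, against the same 54.6% of all genes. Lrat, which makes the retinyl esters that stellate cells store, had 3.45, 2.71 and 1.64 FPKM. Col1a1, the main collagen of scars, had 2.64, 1.61 and 1.02 FPKM, and Col3a1 36.3, 24.3 and 24.5 FPKM. These genes were highest in Normal liver 1, but the list did not move together, since Dcn, with 2.60, 4.54 and 4.16 FPKM, was lowest there and Rgs5, with 4.63, 6.49 and 1.09 FPKM, was highest in Normal liver 2. Of 9 cholangiocyte markers, 4 reached 1 FPKM, with 9.74, 6.73 and 7.55 FPKM for Epcam and 1.27, 1.04 and 1.09 FPKM for Krt19, while Sox9 and Krt7 stayed below 0.3 FPKM.

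Genes of blood and immune cells were also read. Hba-a2 and Hbb, haemoglobin genes of red cells, had 571, 921 and 1005 and 148, 325 and 187 FPKM, and were lowest in Normal liver 1. The haemoglobin genes were thus abundant, while S100a9 and S100a8 of neutrophils, at 17.7, 8.27 and 13.5 and 10.98, 4.69 and 8.17 FPKM, were lower in level and lowest in Normal liver 2. Jchain and Ighm of plasma and B cells had 50.3, 43.99 and 25.8 and 18.7, 15.3 and 18.7 FPKM, and Cd4 7.62, 6.10 and 3.80 FPKM. Of the markers of neighbouring organs, 0 of 4 pancreas, 0 of 3 skeletal muscle and 0 of 4 mesothelium genes reached 1 FPKM in all 3 livers. Cpa1 of pancreas, Acta1 and Myl1 of skeletal muscle and Lrrn4 of mesothelium had no read in any liver, while Cpb1 of pancreas had 1.85, 0.487 and 0.384 and Tnnt3 of muscle 1.06, 0.690 and 0.428 FPKM. Of 4 fat tissue markers, 2 reached 1 FPKM in all 3 livers, beside 54.6% of all genes. Cidec had 31.6, 36.3 and 29.9 FPKM, Lpl 5.48, 2.39 and 3.86 FPKM and Adipoq 0.0344, 0 and 0 FPKM.

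The livers differed from each other by more than counting error in most genes. Of 11400 genes with a mean of at least 1 CPM, 8403 (73.7%) had a spread beyond Poisson counting error (chi-square test of the counts against the scaled library sizes, adjusted p under 0.05), and 4594 of 11394 did so between Normal livers 1 and 2 alone. The biological coefficient of variation common to all genes was 0.274 by edgeR. Without Normal liver 3 it was 0.199, without liver 1 0.314 and without liver 2 0.291. The median range between the highest and the lowest liver was 0.59 on the log2 CPM scale. Over 2-fold apart were 2505 of 11400 genes, 22.0%. With 2 livers in place of 3, the count was 715 without Normal liver 3, 1439 without liver 2 and 1602 without liver 1. The range of fewer livers is smaller by construction, and the pair without Normal liver 3 had the smallest count. Normal liver 3 was the farthest from the mean of the livers in 1465 of the 2505 genes, 58.5%, higher in 644 and lower in 821. At a mean of at least 10 CPM, 856 of 6671 genes (12.8%) were over 2-fold apart and 89 over 4-fold.

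**Figure D4:**
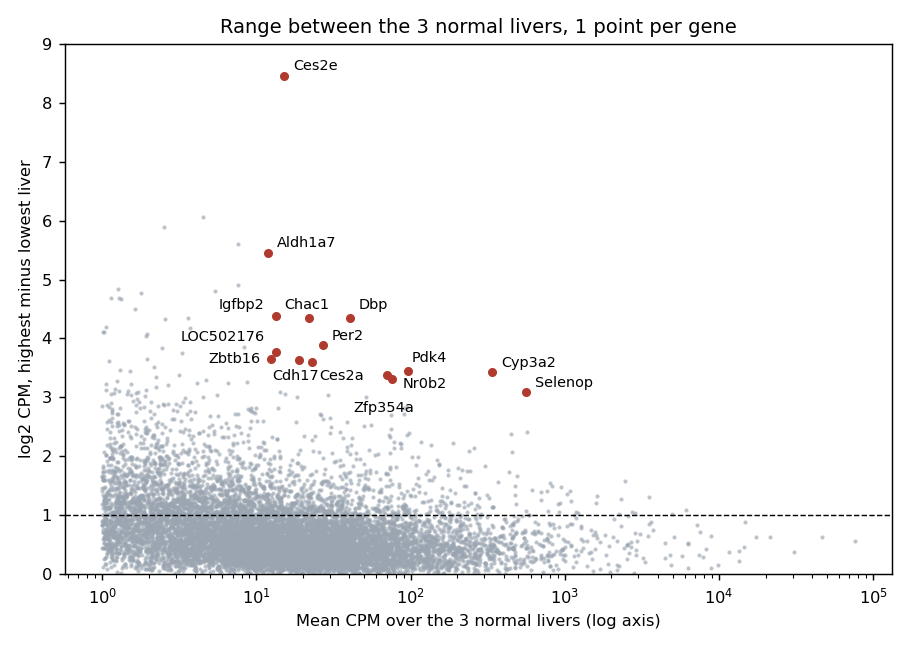
Range of log2 CPM, highest minus lowest of the 3 normal livers, against the mean CPM on a log axis, for genes with a mean of at least 1 CPM. The dashed line marks 2-fold, and the 15 genes of widest range at a mean of at least 10 CPM are named, from Ces2e to Selenop. The height of Ces2e depends on the prior count of 2, since it had no read in Normal liver 3.

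The 15 genes of widest range at a mean of at least 10 CPM included genes of the clock, of lipid handling and of drug metabolism. In 12 of these 15 genes, Normal liver 3 was the farthest from the mean. In Ces2e it was Normal liver 2. In Per2 and Aldh1a7 it was Normal liver 1. Aldh1a7, an aldehyde dehydrogenase, had 0.346, 20.7 and 14.8 CPM and was near 0 in Normal liver 1. Lowest in Normal liver 3 were Igfbp2, a binding protein of insulin-like growth factors, with 22.8, 16.2 and 0.968 CPM, Cdh17, a cadherin, with 14.5, 39.3 and 3.04 CPM, and Zbtb16 with 9.90, 25.7 and 1.94 CPM. Selenop, the plasma selenium carrier, had 706, 869 and 102 CPM, 8.50-fold apart, while Pdk4, Nr0b2, Ces2a, Zfp354a and Cyp3a2 had ranges from 9.97- to 12.1-fold. In each of these, Normal liver 3 was lowest. Highest there were Chac1, which degrades glutathione and responds to endoplasmic reticulum stress, with 2.77, 4.16 and 58.8 CPM, Dbp with 8.66, 5.10 and 107 CPM, Per2 with 3.95, 16.5 and 60.2 CPM and LOC502176 with 2.35, 3.77 and 33.9 CPM. Between Normal livers 1 and 2 alone, Dbp and Chac1 were within 2-fold, whereas Per2 was over 2-fold apart.

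The steadiest genes among those at 100 CPM or more were Cpb2, NEWGENE_619861, RGD1359290, Serpinc1 and Lcat. Cpb2, a carboxypeptidase that slows clot breakdown, had 409, 409 and 409 CPM. Serpinc1 had 2807, 2847 and 2809.7 CPM, and Lcat, which esterifies cholesterol in plasma, 728, 721 and 711 CPM. These genes were picked for their small spread out of many, so that the values are a description. The cytosolic ribosomal proteins, with 5 of 69 genes over 2-fold apart (7.25%), had the lowest share of the lists with at least 8 tested genes, and amino acid breakdown (5 of 45) and coagulation (3 of 26) were also below 22.0%. Between Normal livers 1 and 2, the counts were 2, 2 and 1, against 6.12% of all tested genes. At a mean of at least 10 CPM, they were 2 of 58, 4 of 43 and 1 of 23 with all livers, against 12.8% of all genes. Normal liver 3 nevertheless had the highest level in 41 of the 69 ribosomal genes, against 4565 of 11400 among all tested genes.

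The circadian clock list had the highest share of genes apart among the lists with at least 8 tested genes. Of 17 tested clock genes, 12 were over 2-fold apart, 70.6%, against 22.0% of all tested genes, and 4 of 17 were so between Normal livers 1 and 2, against 6.12%. Dbp, an output factor of the clock, had 5.15, 2.99 and 62.2 FPKM. Of the repressor arm, Per1 had 5.11, 8.42 and 10.1 FPKM, Per2 0.691, 2.84 and 10.3 FPKM, Per3 0.325, 0.470 and 1.48 FPKM and Cry2 3.66, 4.87 and 7.69 FPKM. Each of these was highest in Normal liver 3, as was Nfil3, at 31.3, 31.6 and 81.4 FPKM. Cry1 of the same arm was highest in Normal liver 2, at 0.744, 1.76 and 0.867 FPKM. The activators Arntl (BMAL1) and Npas2, with 6.70, 10.6 and 4.12 and 5.97, 7.72 and 3.59 FPKM, and Clock, with 4.50, 5.49 and 3.01 FPKM, were lowest in Normal liver 3. The repressors of Arntl, Nr1d1 and Nr1d2, had 13.9, 20.7 and 15.7 and 8.32, 8.93 and 10.6 FPKM and were within 2-fold.

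**Figure D5:**
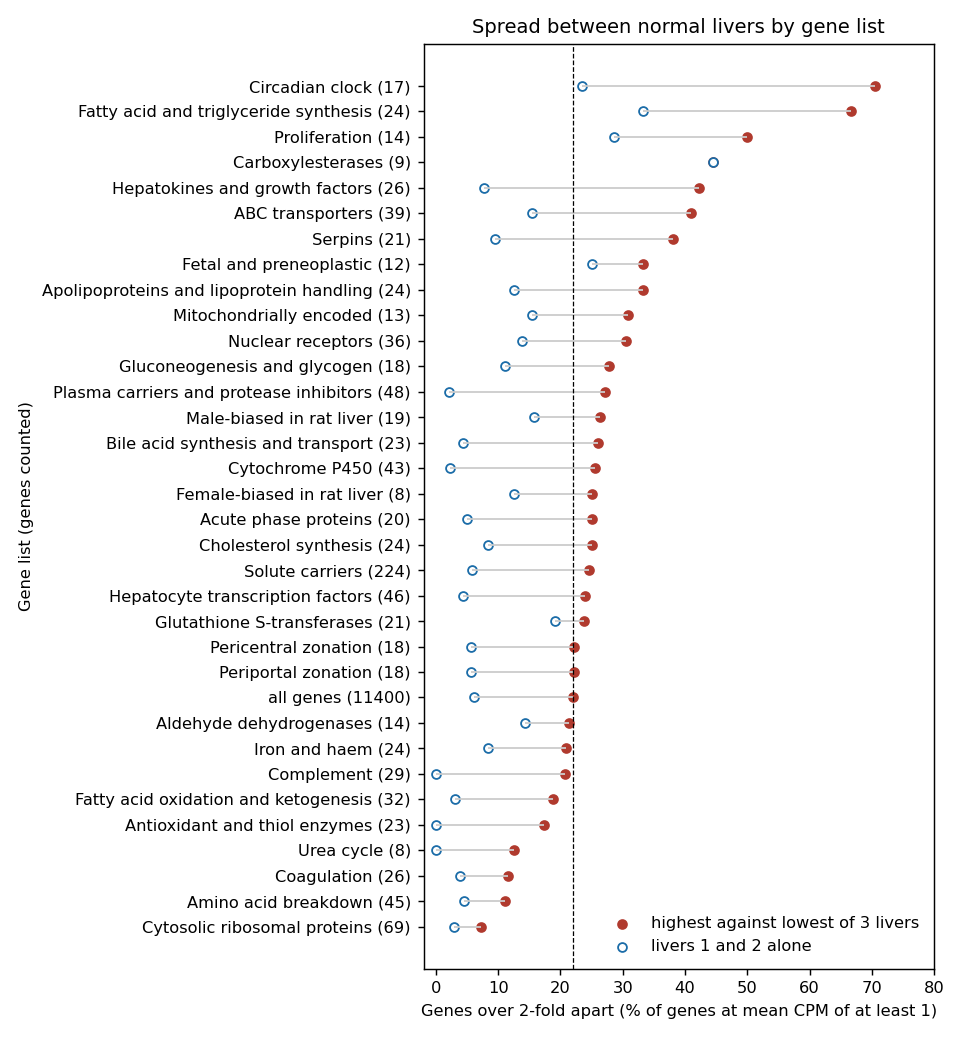
Percentage of genes over 2-fold apart in each gene list with at least 8 tested genes, for the highest against the lowest of 3 livers (filled points) and for Normal livers 1 and 2 alone (open points). The dashed line marks 22.0%, the share of all 11400 tested genes. Clock and fatty acid synthesis genes lie far above it and ribosomal proteins at 7.25%.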

How the data were processed

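Liver RNA of 3 normal control libraries was read from the deposited table of the normal and model groups. Per the paper's methods, the authors selected polyA RNA, sequenced it in pairs of reads, trimmed it with Trimmomatic and Cutadapt, mapped it with STAR and counted it on genes with HTSeq-count, whose versions are not given in the sources used here. The paper names a human build and the submitters' processing notes name mm9, while the gene symbols are those of rat. The authors deposited raw counts per gene, without normalization, and FPKM values computed from the counts, the gene's counted length and the total of the table. Another 6 columns of counts normalized by the authors, and their log2 fold changes and p-values of a group comparison, were not used. Of the 16938 genes, 15459 (91.3%) matched a symbol or synonym of RefSeq GRCr8, used for names, neighbours and promoter sequences alone. The promoter sequences were matched by symbol without synonyms.

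CPM values were computed with TMM library sizes and log2 CPM with a prior count of 2 (edgeR 4.0.16, R 4.3.3, pandas 2.3.3). Genes with a mean of at least 1 CPM were called apart at over 2-fold between the highest and the lowest liver. Spread beyond counting error was tested by a chi-square test with 2 degrees of freedom (scipy 1.17.1, Benjamini-Hochberg adjusted p under 0.05), and the common coefficient of variation was estimated with edgeR. The steps were tested on simulated data. DESeq2 1.42.0 served as an alternative. The members and the gene lists were chosen with earlier results of these data known. The genes named are the 30 of highest mean FPKM, the 10 most read, up to 6 leading members and the widest of each list, all isozymes at 1 FPKM or more, cell type markers, the 15 of widest range and the 5 steadiest. A few others were named after their values were seen: the members of neighbouring gene groups, the overlapping mitochondrially encoded genes, list members at 0, and members of the clock, zonation, lipid, sex-biased, Y-linked, marker and transport lists that rank lower. The alias Mt-cox3 was added to the mitochondrial list for the same reason. Some genes, and 5 isozyme families that hold them, are not reported here. Listed genes that the table does not hold were not analysed here.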

Additional observations from a re-analysis of the deposited data

How the results depend on the processing

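Of 49 recomputed values, 36 stayed near the main ones. A count of genes was called near within 1.5-fold, so that 12395 expressed genes at 0.1 FPKM passed beside 9243. The share of the 50 leading genes was called near within its SD between the livers. The choice of level set the number of expressed genes, with 3431 genes in place of 9243 when 10 FPKM was required. The share of the 50 leading genes was 52.7% when FPKM was summed in place of reads and 39.7% without mitochondrially encoded genes, and the genes needed for 50% were then 39 and 119. Genes over 2-fold apart numbered 856 of 6671 at a mean of at least 10 CPM and 4354 of 14138 at 0.1 CPM. With 1 liver left out, that count ran from 715 to 1602, the genes beyond counting error from 4594 to 7006 and the common coefficient of variation from 0.199 to 0.314, each lowest without Normal liver 3. DESeq2's median gene-wise dispersion gave a coefficient of 0.190, which is a median over genes and not a common value. Scaling by library totals or DESeq2 size factors changed neither the count of genes over 2-fold apart, nor that of genes beyond counting error, nor edgeR's coefficient by over 1.5 times. Among the isozymes, the leading AMPK subunit became Prkaa1 by CPM and without Normal liver 2, and the leading insulin receptor substrate became Irs1 without Normal liver 3. No paired analysis was possible because the values describe a single group and come from no test between groups. With 3 libraries of 14257489 to 18090405 reads, rare transcripts and the spread of single genes are known only roughly.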

Other observations

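The hepatokine and growth factor list, which holds signals that the liver sends to other organs, was also uneven. Of 26 tested genes, 11 were over 2-fold apart, 42.3%, against 22.0% of all tested genes, and 2 of 26 were so between Normal livers 1 and 2, against 6.12%. Normal liver 3 was lowest in 17 of the 26 and highest in 3, against 4513 and 4565 of the 11400 tested genes. Fgf21, a hormone of fasting and stress, had 68.6, 82.96 and 15.3 FPKM, and Igfbp1, the insulin-suppressed binding protein, 236, 468 and 438 FPKM. Fgf21 was lowest in Normal liver 3, and Igfbp1 was lowest in Normal liver 1. Of the antioxidant list, Gpx1, Sod1 and Cat had 1423, 1885 and 1092, 1304, 1167 and 1212 and 1132, 1048 and 788 FPKM. The metallothioneins Mt1 and Mt2A, which bind zinc, were highest in Normal liver 1 and lowest in Normal liver 3, at 2043, 1092 and 631 and 478, 251 and 165 FPKM.

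Of 39 tested ABC transporters, 16 were over 2-fold apart, 41.0%, and 6 between Normal livers 1 and 2, against 22.0% and 6.12% of all tested genes. Abcc6, whose loss causes calcification of soft tissue, had 87.6, 99.2 and 242 FPKM, and Abcc2, which exports conjugates into bile, 43.5, 29.8 and 20.4 FPKM. Abcc6 was highest and Abcc2 lowest in Normal liver 3. Of the iron and haem list, 5 of 24 were over 2-fold apart, 20.8%, close to all tested genes, and 2 between Normal livers 1 and 2. At a mean of at least 10 CPM it was 3 of 21, against 12.8% of all genes. Tfr2, the iron sensor of hepatocytes, and Cp, the copper-bearing ferroxidase, had 135, 150.5 and 178 and 253, 289 and 255 FPKM.

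Of 25 proliferation genes, 6 reached 1 FPKM in all 3 livers, against 54.6% of all genes. Ccnd1, which carries hepatocytes into the cell cycle, had 23.1, 7.50 and 5.79 FPKM, and Aurka, a mitotic kinase, 4.34, 5.46 and 13.8 FPKM, the first highest in Normal liver 1 and the second in Normal liver 3. Of 14 genes of fetal liver and of early liver tumours, 8 (57.1%) reached 1 FPKM in all 3 livers, near the 54.6% of all genes. Gstp1 had 32.7, 29.4 and 44.9 FPKM and Spp1 3.83, 1.02 and 3.02 FPKM. Lcn2, an acute phase gene that neutrophils also make, had 3.39, 0.373 and 14.2 FPKM and was named after its values were seen.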
